A study of Homo sapiens with 6 samples.

Results

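The genes described here encode the Wnt ligands, the receptors that bind them, and the proteins that lipidate, export, relay or sequester Wnt signals. The rule reads gene symbols alone, although it was drawn up with earlier results of these data known, and takes every WNT, FZD and SFRP gene, DVL1 to DVL3, LRP5, LRP6, ROR1, ROR2, RYK, PORCN and WLS. The rule found 43 of the 60664 genes in the table. By role these were 19 Wnt ligands, 10 Frizzled receptors, 5 other receptors and co-receptors, 2 genes of ligand lipidation and export, 3 Dishevelled adaptors and 4 secreted Frizzled-related proteins. FRZB, which is also named SFRP3, carries another symbol in the table and was counted among the other modulators.

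RNA sequencing was done on SW480 cells, a human colorectal adenocarcinoma line in long use, labelled as wild type in both groups. The control group was 3 libraries from cells given buffer, and the other group was 3 libraries from cells given Amuc_0904. Names of this form are used as gene identifiers for Akkermansia muciniphila, a bacterium of the gut. The labels describe neither the preparation, its dose nor the exposure time. All libraries come from 1 cell line, and nothing says that replicates were separate cultures, so each p-value reflects only the spread between these samples, which may be technical.

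Wnt proteins are lipidated by PORCN in the endoplasmic reticulum and carried to the cell surface by WLS. At the receiving cell they bind a Frizzled receptor together with LRP5 or LRP6, and Dishevelled proteins then hold back the complex that marks beta-catenin for destruction. ROR1, ROR2 and RYK take part in branches that do not need beta-catenin, and secreted Frizzled-related proteins bind Wnts outside the cell. In the intestine this pathway maintains the stem cells of the crypt. SW480 cells carry a truncated APC, a scaffold of the destruction complex, so beta-catenin is already high in this line without a ligand.

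Of the 43 members, 27 were expressed, which means a value of at least 1 TPM in at least 3 of the 6 libraries. TPM, the unit of the table, is a share of a library's transcripts after division by transcript length, so levels can be compared between genes. The expressed members were 9 of 19 ligands, 7 of 10 Frizzled receptors, all 5 other receptors, both export genes, all 3 Dishevelled genes and 1 of 4 SFRP genes. The ligands WNT2 and WNT8A and the inhibitor SFRP2 were listed at 0 in every library. WNT1, WNT2B, WNT3A, WNT4, WNT7B, WNT9B, FZD10, SFRP1 and SFRP4 stayed below the threshold in every library, at 0.43 TPM or less. FZD4 was just outside the rule, at 0.87 to 1.05 TPM, and so were WNT7A at 0.60 to 1.04 TPM, WNT8B at 0.35 to 0.98 TPM and FZD8 at 0.48 to 0.95 TPM. WNT5B was just inside it, at 0.87 to 2.60 TPM. The most abundant members by mean over both groups were WNT6 at 51.4 TPM, DVL1 at 46.1 TPM, WLS at 42.8 TPM and RYK at 39.2 TPM.

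**Figure D1:**
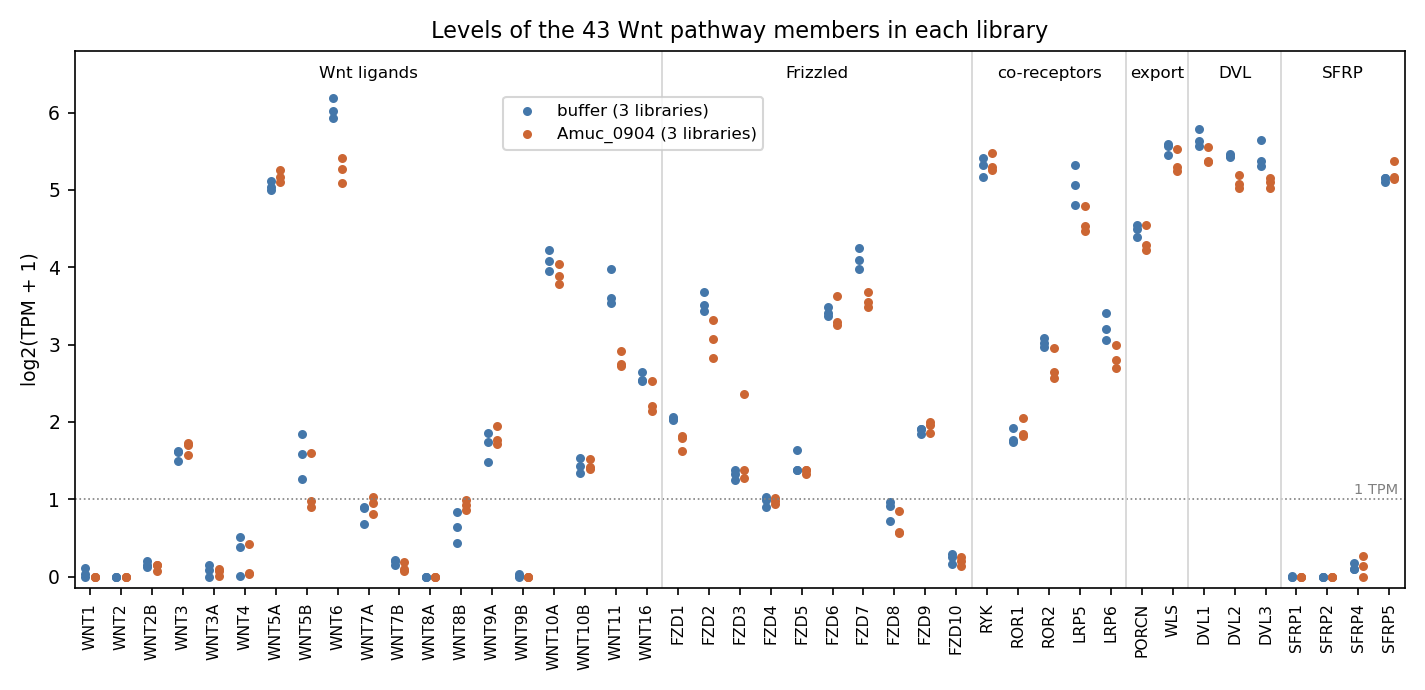
Levels of the 43 members on the log2(TPM + 1) scale, ordered by role along the horizontal axis, with 1 point per library (blue for buffer, orange for Amuc_0904). The dotted line is 1 TPM, and 16 members did not reach it in 3 libraries.

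Between 14481 and 14586 genes reached 1 TPM in buffer libraries and between 14244 and 14420 in Amuc_0904 libraries, so every Amuc_0904 library had fewer. Read numbers cannot be had from TPM, and depth is therefore unknown. A principal component with 33.8% of the variance separated the groups, and its extremes were buffer replicate 2 and Amuc_0904 replicate 3. The libraries also differed in how their values ran with the GC content of transcripts. The slope per 10 GC points lay between 0.07 and 0.16 log2 units in buffer libraries and between -0.04 and 0.07 in Amuc_0904 libraries, and the ranges did not overlap (lowest buffer value 0.0737, highest Amuc_0904 value 0.0713).

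The 8 epithelial markers, of which 6 were tested, summed to 7907 to 8148 TPM in buffer and 7092 to 7380 TPM in Amuc_0904 libraries, and KRT8 was the highest. One of them, the adhesion gene CDH1, fell from 7.01 to 3.80 TPM (limma adjusted p = 0.0444). Its call was lost after the GC removal described further on (log2 fold change -0.68, limma adjusted p = 0.0569). Markers of cells that a pure line should lack were low. The 6 leukocyte markers summed to 3.27 to 3.68 TPM in buffer and 4.77 to 5.39 TPM in Amuc_0904 libraries, with CD68 at 1.42 and 2.84 TPM and PTPRC, which defines leukocytes, listed at 0 throughout. The 6 fibroblast markers summed to 2.32 to 3.76 TPM and 1.71 to 2.22 TPM with DCN at 0, and the 4 endothelial markers to 0.25 to 0.80 TPM and 0.16 to 0.54 TPM with KDR at 0. What part these marker differences have in the results was not tested. In bulk RNA, fewer cells expressing a gene and less RNA per cell cannot be told apart.

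WNT6, a ligand that acts mainly through beta-catenin, was the most abundant ligand in buffer and fell with Amuc_0904. Its level was 64.1, 71.8 and 59.95 TPM in buffer replicates 1 to 3 and 37.7, 41.5 and 33.2 TPM in Amuc_0904 replicates 1 to 3. The groups did not overlap, and the highest Amuc_0904 library lay well under the lowest buffer library. The means were 65.3 ± 6.0 and 37.4 ± 4.17 TPM (SD, n = 3 each), 1.74-fold lower, with a log2 fold change of -0.79 (SE 0.10, limma adjusted p = 0.0135). Fold changes subtract buffer from Amuc_0904 in log2(TPM + 1) units, and changes of genes at a few TPM are understated by them. WNT6 (ENSG00000115596) lies on the plus strand of chromosome 2 from 218859821 to 218874233 (GRCh38) and overlaps no other annotated gene. The call was lost without buffer replicate 2 (limma adjusted p = 0.0616).

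WNT11, a ligand of the branches that steer cell polarity and movement, fell as well. It stood at 11.1, 14.7 and 10.6 TPM in buffer and at 5.70, 5.59 and 6.54 TPM in Amuc_0904 libraries. Every Amuc_0904 library was below every buffer library, and buffer replicate 2 was the highest of the 6. The means were 12.2 ± 2.26 and 5.94 ± 0.520 TPM (SD, n = 3 each), 2.04-fold lower, with a log2 fold change of -0.91 (SE 0.14, limma adjusted p = 0.0235). WNT11 (ENSG00000085741) lies on the minus strand of chromosome 11 from 76186325 to 76210736. AP000785.1, on the other strand within it, was near 0.49 TPM on average and its groups overlapped. The WNT11 call was lost when buffer replicate 1, buffer replicate 2, Amuc_0904 replicate 1 or Amuc_0904 replicate 2 was left out (limma adjusted p of 0.0631, 0.0664, 0.0895 and 0.0754).

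The other 7 expressed ligands did not pass the test. WNT5A, which acts mostly through ROR2 and other receptors without beta-catenin, stood at 31.0, 33.5 and 31.8 TPM in buffer and at 33.4, 37.2 and 34.9 TPM in Amuc_0904 libraries (log2 fold change 0.13, limma adjusted p = 0.353). Its groups overlapped, while those of its neighbour on the other strand did not. WNT5A-AS1, an antisense RNA gene, was at 11.5, 17.8 and 9.51 TPM in buffer and at 6.90, 3.98 and 3.17 TPM in Amuc_0904 libraries, with a limma adjusted p of 0.0577. Whether counting used strand is not given in the sources used here, so reads of this pair may be mixed.

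WNT10A, a ligand of the beta-catenin branch, lies 6129 bases beyond WNT6 on the same strand, with no annotated gene between them. WNT10A was at 17.8, 15.9 and 14.5 TPM in buffer and at 13.8, 15.5 and 12.8 TPM in Amuc_0904 libraries (log2 fold change -0.18, limma adjusted p = 0.361), and its groups overlapped. The ratio of WNT6 to WNT10A was 3.61, 4.52 and 4.12 in buffer and 2.74, 2.68 and 2.60 in Amuc_0904 libraries. Within each library, then, the ratio of these adjacent genes was lower in all 3 Amuc_0904 libraries than in any buffer library. WNT16 was at 4.78, 4.81 and 5.28 TPM and then 3.42, 4.75 and 3.62 TPM, with groups that did not overlap but a limma adjusted p of 0.276. WNT3, WNT5B, WNT9A and WNT10B had means between 1.29 and 2.51 TPM in either group, and their limma adjusted p lay between 0.363 and 0.976. Among ligands that were not tested, WNT8B was at 0.78, 0.35 and 0.56 TPM in buffer and at 0.81, 0.98 and 0.90 TPM in Amuc_0904 libraries.

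Summed over all 19 ligands, transcripts reached 137.8, 151.8 and 131.7 TPM in buffer and 103.0, 115.8 and 100.4 TPM in Amuc_0904 libraries. WNT6 held 46.4% ± 0.90 of that sum in buffer and 35.2% ± 1.85 with Amuc_0904 (SD, n = 3 each). WNT5A held 22.9% ± 1.06 and 33.1% ± 1.46, so the pair went from a clear order to nearly equal shares. The ratio of WNT6 to WNT5A was between 1.89 and 2.14 in buffer libraries and between 0.95 and 1.13 in Amuc_0904 libraries. These sums, shares and ratios are descriptions without a test, and they are not adjusted for GC content. The transcripts of WNT6 and WNT5A differ in it, at 70.5% and 42.3%. After the GC removal described further on, the log2 fold change of WNT6 went from -0.79 to -0.48, while that of WNT5A went from 0.13 to 0.12.

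**Figure D2:**
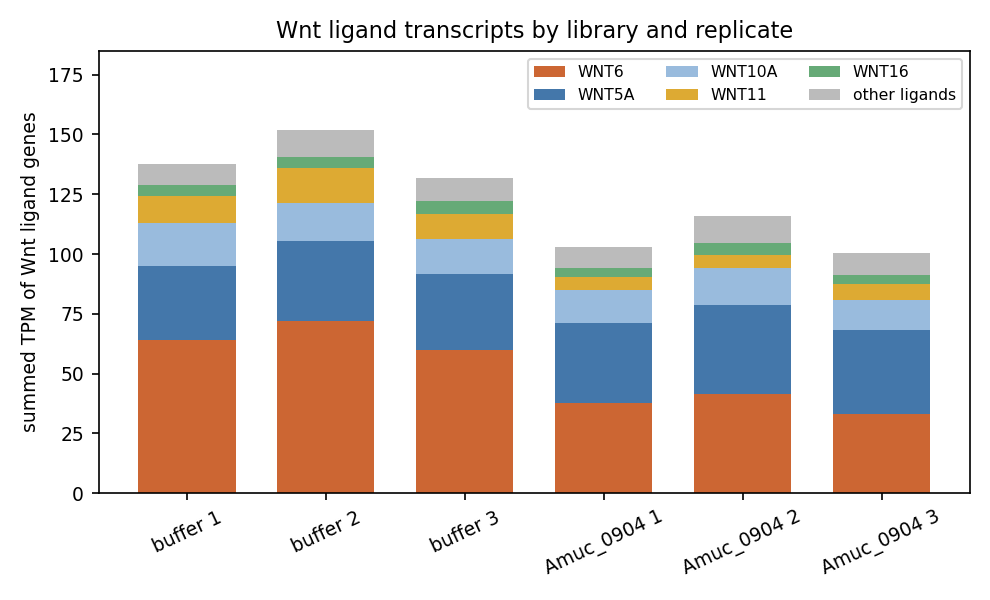
Stacked bars of summed ligand TPM in each of the 6 libraries, by ligand. The whole bar runs from 131.7 to 151.8 TPM in buffer and from 100.4 to 115.8 TPM in Amuc_0904 libraries, and the WNT6 segment is the one that narrows most.

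The 250 bases before the start of WNT6 are shown beside those of SFRP5, because both transcripts are rich in GC and only WNT6 passed the test. Both sequences are RefSeq windows on GRCh38.p14, read 5′ to 3′ on the gene's own strand, and neither overlaps an exon of GENCODE 29. WNT6 is chr2:218859555-218859804 on the plus strand and SFRP5 is chr10:97772000-97772249 on the minus strand. Capitals mark the GC box GGGCGG, a motif bound by Sp family factors, or its complement CCGCCC.
WNT6: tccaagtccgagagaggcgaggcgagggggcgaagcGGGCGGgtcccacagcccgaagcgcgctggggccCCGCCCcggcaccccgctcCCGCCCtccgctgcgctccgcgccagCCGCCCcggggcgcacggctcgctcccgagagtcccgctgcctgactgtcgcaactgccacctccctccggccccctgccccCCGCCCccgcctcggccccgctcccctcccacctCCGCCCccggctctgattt
SFRP5: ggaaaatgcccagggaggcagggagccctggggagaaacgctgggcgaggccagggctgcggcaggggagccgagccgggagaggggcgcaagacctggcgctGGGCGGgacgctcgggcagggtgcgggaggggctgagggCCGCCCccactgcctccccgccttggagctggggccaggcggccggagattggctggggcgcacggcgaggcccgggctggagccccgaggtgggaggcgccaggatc
The WNT6 window is 79.2% GC with 6 GC boxes, which begin 214, 180, 161, 135, 53 and 19 bases before the start. The SFRP5 window is 76.8% GC with 2 GC boxes, at 147 and 108 bases. These distances are from RefSeq starts, which for both genes lie somewhat upstream of the GENCODE gene. RefSeq windows were matched for 33 of 43 members, 20 of them expressed, and 16 of those 20 (80%) held a GC box on either strand, against 42.5% of 34943 windows of the same length. No window was matched for WNT11 or FZD7, so WNT6 is the only member past the threshold that these windows cover. The TCF/LEF motifs CTTTGAT and CTTTGAA were in 0 of 20 windows and 6.0% of all windows, and TATAAA was in 0 of 20 and 10.8%. The median GC content of all windows was 58.0%. The 20 windows ran from 52.8% (WNT5A) to 87.2% (LRP5), and only WNT5A and WNT5B (54.8%) were under that median. All windows also include genes that were not expressed, so these shares are not matched for GC content or expression. Only the first listed window of each member was read, while all windows were not limited to a single one per gene. What part composition has in them was not tested. A match describes letters only.

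FZD7, a Frizzled receptor found in intestinal crypt cells, was the most abundant Frizzled gene and fell at the edge of the threshold. It was at 16.0, 18.0 and 14.8 TPM in buffer and at 10.7, 11.8 and 10.3 TPM in Amuc_0904 libraries. The groups did not overlap, and each was narrow. The means were 16.3 ± 1.63 and 10.9 ± 0.823 TPM (SD, n = 3 each), 1.49-fold lower, with a log2 fold change of -0.53 (SE 0.10, limma adjusted p = 0.04995). FZD7 (ENSG00000155760) lies on the plus strand of chromosome 2 from 202034587 to 202038445, with no other annotated gene overlapping it. Its call was lost whichever library was left out, with limma adjusted p from 0.0683 to 0.170.

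FZD2 and FZD1 were lower in every Amuc_0904 library than in any buffer library, without passing. FZD2, a close relative of FZD7, was at 9.77, 11.9 and 10.4 TPM in buffer and at 7.42, 8.99 and 6.09 TPM in Amuc_0904 libraries. That is 10.7 ± 1.08 against 7.5 ± 1.45 TPM (SD, n = 3 each), a log2 fold change of -0.47 (SE 0.14, limma adjusted p = 0.119). FZD1, the other member of that subfamily, was at 3.06, 3.20 and 3.09 TPM and then 2.54, 2.09 and 2.46 TPM (limma adjusted p = 0.225). Groups thus did not overlap for 3 of the 7 expressed Frizzled genes, FZD1, FZD2 and FZD7, where 20.1% of all tested genes were lower without overlap.

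FZD3 was high in a single library. It was at 1.61, 1.51 and 1.37 TPM in buffer and at 1.42, 1.59 and 4.14 TPM in Amuc_0904 replicates 1 to 3. Its log2 fold change was 0.35 with all libraries (limma adjusted p = 0.507) and 0.0051 without Amuc_0904 replicate 3. FZD6 was second among the Frizzled genes at 9.66 TPM on average, and its groups overlapped (log2 fold change -0.03, limma adjusted p = 0.919). FZD5 and FZD9 had log2 fold changes of -0.10 and 0.05, and limma adjusted p of 0.724 and 0.842.

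LRP5 and LRP6, the co-receptors of the beta-catenin branch, were lower in every Amuc_0904 library than in any buffer library and did not pass. Of all tested genes, 20.1% were lower without overlap. The share was 40.2% at a transcript GC content of at least 60%, as for LRP5 (62.8%), and 8.0% under 50%, as for LRP6 (40.2% GC). LRP5 was at 27.1, 38.9 and 32.5 TPM in buffer and at 22.2, 26.7 and 21.2 TPM in Amuc_0904 libraries. It averaged 32.8 ± 5.92 and 23.4 ± 2.93 TPM (SD, n = 3 each), a log2 fold change of -0.46 (SE 0.14, limma adjusted p = 0.117). LRP6 was at 7.33, 8.21 and 9.63 TPM in buffer and at 6.94, 5.47 and 5.97 TPM in Amuc_0904 libraries. The difference was of similar size to that of LRP5: 8.39 ± 1.16 against 6.13 ± 0.747 TPM (SD, n = 3 each), a log2 fold change of -0.40 (SE 0.13, limma adjusted p = 0.139). The LRP5 to LRP6 ratio ranged from 3.37 to 4.73 in buffer and from 3.21 to 4.89 in Amuc_0904 libraries, so their balance overlapped between groups.

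Among receptors of the branches without beta-catenin, ROR2 was lower and RYK and ROR1 overlapped. ROR2, a receptor for WNT5A, was at 6.84, 7.14 and 7.47 TPM in buffer and at 4.91, 6.73 and 5.28 TPM in Amuc_0904 libraries (log2 fold change -0.30, SE 0.13, limma adjusted p = 0.216). RYK, the most abundant receptor of the set, was at 41.7, 39.1 and 34.8 TPM in buffer and at 38.5, 37.3 and 43.4 TPM in Amuc_0904 libraries. Its log2 fold change was 0.04 (SE 0.09, limma adjusted p = 0.824). ROR1 averaged 2.51 and 2.75 TPM (limma adjusted p = 0.738).

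Neither gene of ligand lipidation and export passed the test. WLS, the carrier that brings Wnts to the surface, was at 47.5, 46.4 and 42.9 TPM in buffer and at 36.8, 38.4 and 45.1 TPM in Amuc_0904 libraries. Amuc_0904 replicate 3 fell inside the buffer range, and the means were 45.6 ± 2.38 and 40.1 ± 4.39 TPM (SD, n = 3 each; log2 fold change -0.18, SE 0.09, limma adjusted p = 0.282). PORCN, the enzyme that lipidates Wnts, was at 21.6, 19.95 and 22.3 TPM in buffer and at 17.6, 22.4 and 18.6 TPM in Amuc_0904 libraries (limma adjusted p = 0.537).

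All 3 Dishevelled genes were lower in every Amuc_0904 library than in any buffer library and none passed, although DVL1 turned positive after the GC removal described further on (0.01). Of all tested genes, 20.1% were lower without overlap. The share was 40.2% at a transcript GC content of at least 60%, as for DVL1 (67.2%) and DVL2 (60.3%). At 50 to 60% GC, as for DVL3 (56.8%), it was 30.2%. DVL2 came nearest, at 42.2, 43.1 and 42.4 TPM in buffer and 32.8, 35.7 and 31.7 TPM in Amuc_0904 libraries. The means were 42.6 ± 0.497 and 33.4 ± 2.03 TPM (SD, n = 3 each), with a log2 fold change of -0.34 (SE 0.07, limma adjusted p = 0.0547). DVL3 was at 38.6, 49.0 and 40.3 TPM in buffer and at 31.7, 33.5 and 34.6 TPM in Amuc_0904 libraries (log2 fold change -0.34, SE 0.10, limma adjusted p = 0.106). DVL1, the most abundant of the trio, was at 46.6, 54.5 and 48.8 TPM and then 40.3, 46.0 and 40.1 TPM (log2 fold change -0.24, SE 0.09, limma adjusted p = 0.167). DVL2 passed when only genes of at least 5 TPM were tested (limma adjusted p = 0.0372) and when libraries were weighted (0.0395). After GC removal its log2 fold change was -0.17 (limma adjusted p = 0.199), and its adjusted p was 0.133 with libraries centred on their medians and 0.137 with no filter.

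SFRP5 was the only secreted Frizzled-related gene expressed, and its groups overlapped. This inhibitor, which binds Wnts outside the cell, was at 33.5, 34.6 and 34.8 TPM in buffer and at 34.9, 40.4 and 34.3 TPM in Amuc_0904 libraries. It held 99.7% of the summed SFRP level in both groups. The means were 34.3 ± 0.716 and 36.5 ± 3.35 TPM (SD, n = 3 each), with a log2 fold change of 0.09 (SE 0.08, limma adjusted p = 0.584).

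**Figure D3:**
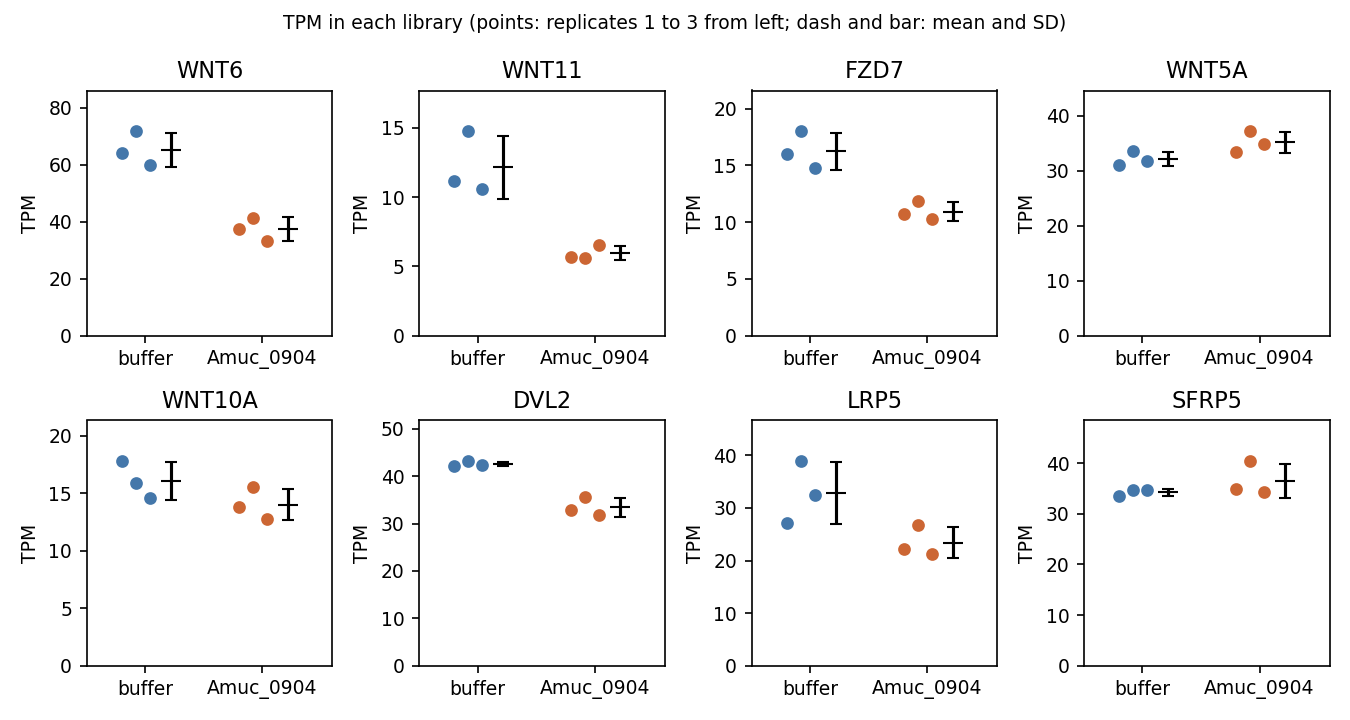
TPM of 8 members in each library, from 0 upward on each axis, with points for replicates 1 to 3 of buffer (blue) and Amuc_0904 (orange) and a dash and bar for the mean and SD. The groups are apart for WNT6, WNT11, FZD7, DVL2 and LRP5 and overlap for WNT5A, WNT10A and SFRP5.

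Across the 27 tested members, 3 fell (11.1%) and 0 rose in the limma fit over all 14421 tested genes, of which 0.999% fell and 0.368% rose. At an unadjusted p under 0.05, 11 members were lower (40.7%) and 0 higher, against 16.3% and 4.49% of all tested genes. Groups did not overlap for 12 members with Amuc_0904 lower (44.4%) and 0 with it higher, against 20.1% and 7.0% of all tested genes. A negative log2 fold change was found for 18 of 27 members (66.7%), close to the 62.5% of all tested genes. The members' median log2 fold change was -0.18, and that of all tested genes was -0.06.

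**Figure D4:**
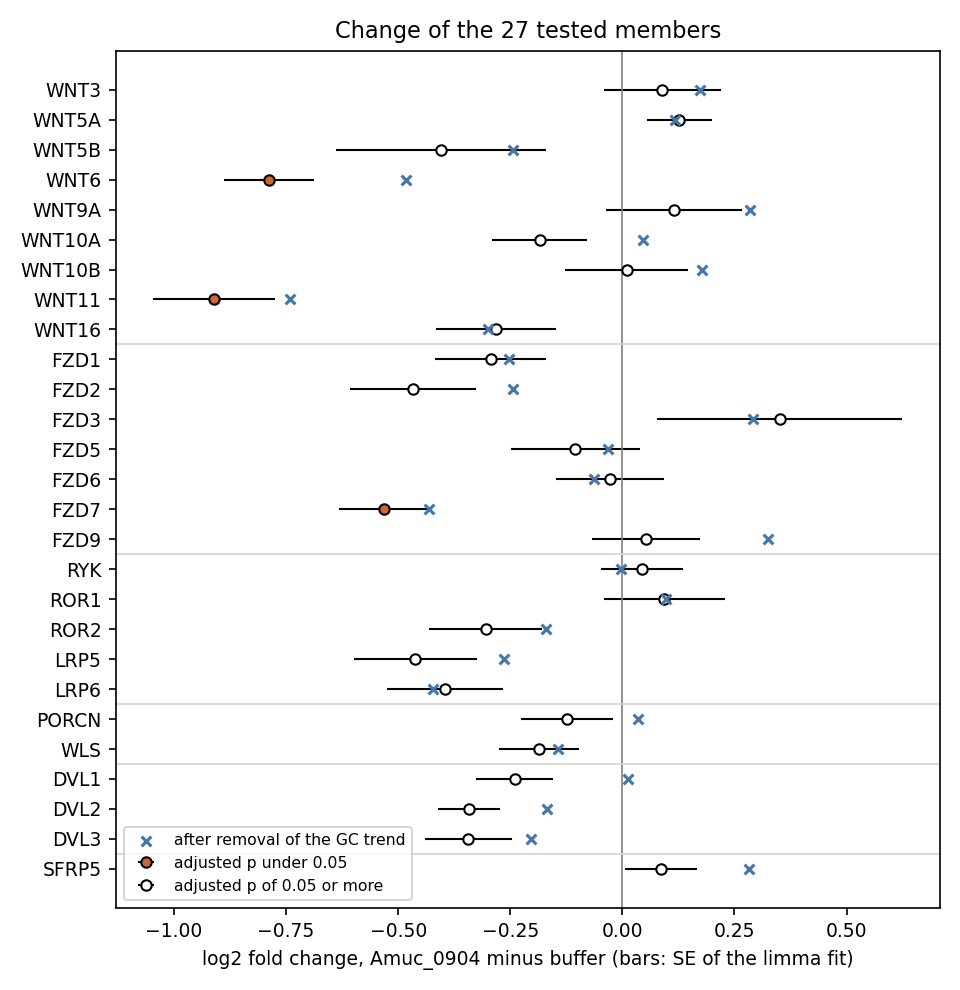
Log2 fold change of the 27 tested members, by role from top to bottom, with bars for the SE of the limma fit and filled points for an adjusted p under 0.05. Crosses show the value after removal of the GC trend, which lies nearer to 0 than the point for WNT6 (-0.48) and at 0.01 for DVL1.

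Transcript GC content moved with these results. The tested members had a median of 56.8% GC in their longest transcripts, against 49.2% over all tested genes with a GC value. Over the 27 members, Pearson's r between GC content and log2 fold change was -0.42 and Spearman's rho was -0.35. Over 14277 genes the values were -0.35 and -0.43, and in both cases genes share the same 6 libraries. Of the 8 members with at least 60% GC, 5 (62.5%) were lower without overlap, against 40.2% of all such genes. The figures were 4 of 9 (44.4%) against 30.2% at 50 to 60% GC, and 3 of 10 (30.0%) against 8.0% under 50%.

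**Figure D5:**
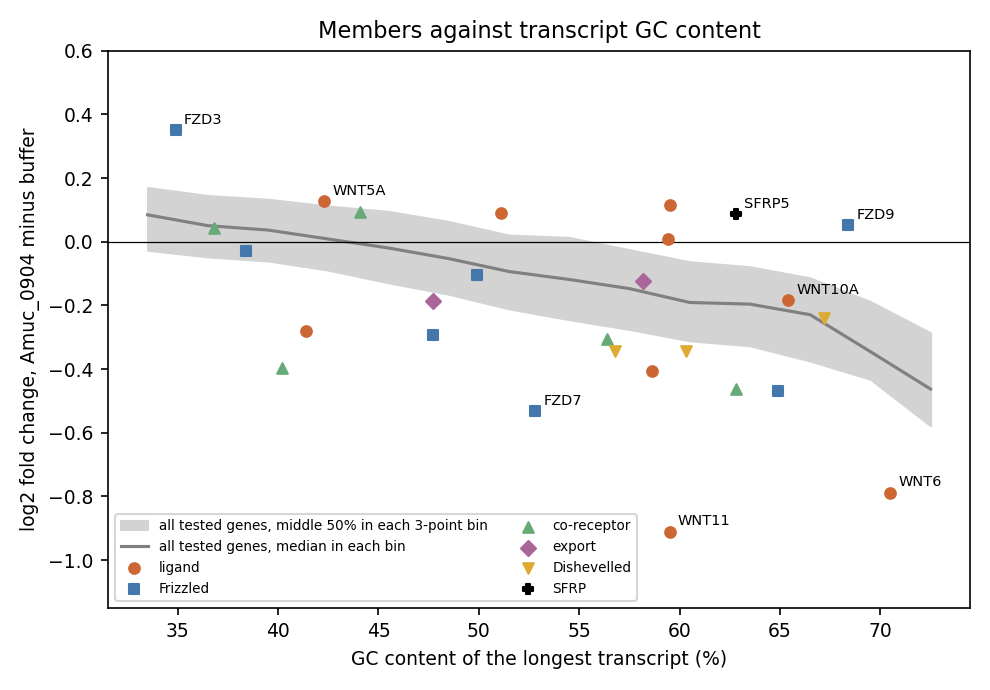
Log2 fold change of each tested member against the GC content of its longest transcript in percent, by role. The grey line and band are the median and middle 50% of all tested genes in bins of 3 GC points. WNT6, WNT11 and FZD7 lie below the band, as do WNT5B, WNT16, FZD1, FZD2, ROR2, LRP5, LRP6, WLS, DVL2 and DVL3. SFRP5 and FZD9 lie above it, as do WNT3, WNT5A, WNT9A, WNT10B and FZD3.

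When each library's trend with GC content was removed by loess, with all libraries put on 1 common mean, WNT6 and WNT11 kept their calls and FZD7 did not. The log2 fold changes were -0.48 for WNT6, -0.74 for WNT11 and -0.43 for FZD7, with limma adjusted p of 0.0227, 0.0446 and 0.0821. Of all 14277 genes in that fit, 0.273% fell and 0.539% rose, so the balance of calls turned over. Directions turned positive for DVL1 (0.01), PORCN (0.03) and WNT10A (0.05), while LRP6, with 40.2% GC, was at -0.42. The value of WNT6 moved over 1.5 times toward 0 (-0.79 to -0.48). So did those of LRP5 (-0.46 to -0.26), FZD2 (-0.47 to -0.24), ROR2 (-0.30 to -0.17), DVL2 (-0.34 to -0.17) and DVL3 (-0.34 to -0.20), among others. SFRP5 went from 0.09 to 0.28 (limma adjusted p = 0.10). The members' median was then -0.06. The median of all tested genes, also -0.06, is from the main fit and is no comparison for it. The common mean was chosen after both forms had been computed. With each library's own mean kept, the form computed first, 102 of all genes fell and 72 rose, against 39 and 77 with the common mean. In that form the log2 fold changes were -0.55 for WNT6, -0.81 for WNT11, -0.50 for FZD7 and -0.06 for DVL1, with limma adjusted p of 0.0165, 0.0407, 0.0558 and 0.634. PORCN and WNT10A stayed negative in it, at -0.04 and -0.02, and the members' median was -0.13. No median of all genes is given for either form of GC removal.

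Other genes of the pathway, from lists of 30 other secreted or membrane modulators, 18 destruction complex genes, 17 beta-catenin and TCF genes, 27 planar polarity and calcium genes and 18 feedback and target genes, were read from the same fit. Some genes are in more than 1 list, such as NOTUM, RNF43 and LGR5. The lists were drawn up with earlier results of these data known, so their counts are no independent evidence of a direction. For medians after GC removal, that of all tested genes is not given, so they describe the lists alone.

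Among the other modulators, 0 of 17 tested passed in either direction, with 11 lower and 1 higher at an unadjusted p under 0.05, against 16.3% and 4.49% of all tested genes. Their median log2 fold change was -0.31, or -0.19 after GC removal. Groups were lower without overlap for 14, against 20.1% of all tested genes. NOTUM, an enzyme that removes the lipid from Wnts, went from 41.7 to 31.4 TPM (limma adjusted p = 0.0740). APCDD1, a membrane inhibitor, was the highest of them, at 272 and 229 TPM (limma adjusted p = 0.136).

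Inside the cell, 0 of 17 destruction complex genes passed, with 7 lower and 0 higher at an unadjusted p under 0.05 and a median of -0.15. Over all tested genes 16.3% were lower and 4.49% higher unadjusted, with a median of -0.06. After GC removal the list medians were -0.10 for destruction complex, -0.11 for beta-catenin and TCF, and -0.10 for planar polarity and calcium genes. These are not comparable with the -0.06, which is from the main fit, before libraries were put on a common mean. GSK3B, a kinase gene named after its values were seen, was at 44.5, 19.3 and 46.0 TPM in buffer and at 20.0, 17.5 and 22.4 TPM in Amuc_0904 libraries. Its limma adjusted p was 0.192 with all libraries and 0.0239 without buffer replicate 2, the buffer library that lay inside the Amuc_0904 range. The kinase gene CSNK1A1 averaged 165 and 157 TPM and the phosphatase gene PPP2CA 210.2 and 183 TPM (limma adjusted p of 0.582 and 0.198). Of 16 beta-catenin and TCF genes, 0 passed in limma, with 8 lower and 0 higher unadjusted. CTNNB1, which encodes beta-catenin itself, stood at 476 and 452 TPM (limma adjusted p = 0.525), and the TLE family gene TLE5 at 160.3 and 153 TPM (0.601). Of 22 planar polarity and calcium genes, 0 passed in limma, with 7 lower and 0 higher unadjusted, and the small GTPase genes RHOA and RAC1 had limma adjusted p of 0.755 and 0.787.

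Of 17 tested feedback and target genes, 2 fell and 0 rose in limma, with 11 lower and 1 higher unadjusted and a median of -0.35. After GC removal that median was -0.19. Over all tested genes 0.999% fell and 0.368% rose, and 16.3% and 4.49% were lower and higher unadjusted. ASCL2, which controls transcription in intestinal stem cells, was at 39.0, 41.0 and 34.5 TPM in buffer and at 19.7, 19.4 and 14.98 TPM in Amuc_0904 libraries (log2 fold change -1.05, limma adjusted p = 0.00882). SP5, a transcription factor induced by Wnt signals, was at 134, 147 and 146 TPM and then 93.7, 104 and 106 TPM (log2 fold change -0.49, limma adjusted p = 0.0227). Both had groups that did not overlap. After GC removal ASCL2 was at -0.76 (limma adjusted p = 0.0155) and SP5 at -0.25 (0.166). AXIN2, a feedback inhibitor, went from 319 to 263 TPM, and CCND1, the gene of cyclin D1, from 537 to 414 TPM (limma adjusted p of 0.0774 and 0.0830). MYC, a transcription factor gene and TCF target named after its values were seen, was higher in every Amuc_0904 library, at 157, 158 and 148 TPM in buffer and 186, 187 and 165 TPM with Amuc_0904. Its log2 fold change was 0.21 (limma adjusted p = 0.133), and 0.32 after GC removal (0.0739). The ASCL2 call was lost without buffer replicate 2 (limma adjusted p = 0.0521), and that of SP5 when buffer replicate 2, buffer replicate 3, Amuc_0904 replicate 1 or Amuc_0904 replicate 2 was left out (0.115, 0.0667, 0.0855 and 0.0664).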

How the data were processed

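RNA sequencing gave expression values for 6 libraries, 3 per group as the labels assign them. The authors deposited one table of TPM values, quantified with RSEM per the series' design text. HISAT2, StringTie and edgeR, with no versions, are named in the submitters' processing notes, as is the mouse build GRCm38.p6, although the identifiers are human Ensembl genes, so the annotation behind the values is uncertain. TPM gives no depth, so no counting interval is given. Values were taken as log2(TPM + 1), and the 14421 genes with at least 1 TPM in at least 3 libraries were fitted with limma 3.58.1 in R 4.3.3 (trended empirical Bayes, two-sided), with Benjamini-Hochberg adjustment over all of them and a threshold of 0.05. Errors are SDs between libraries unless named as SE. Positions, GC content and lengths came from GENCODE 29, with GC for 99% of tested genes, and promoter windows from RefSeq. Members and lists were chosen with earlier results of these data known. Full values are given for members past the threshold, the highest of each role, and members with a log2 change of at least 0.3 in size and no overlap. From each other list up to 4 past the threshold and the 2 highest were named, and other genes named were chosen after their values were seen. Alternatives were other pseudocounts, filters, scalings, GC or length removal (loess span 0.3), the replicate block, library weights and leaving libraries out. The fit was also run on simulated data with independent noise for each gene. Those data hold no trend with GC content shared within a library, so they cannot show how such trends affect calls. Figures used matplotlib 3.10.9 in Python 3.11.15.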

Additional observations from a re-analysis of the deposited data

How the results depend on the processing

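The 3 members called in the main fit became 0 with no filter on low TPM, 0 without both libraries at the extremes of principal component 1 (buffer replicate 2 and Amuc_0904 replicate 3), 0 at an adjusted p of 0.01, and 1 with the length trend removed. Leaving out 1 library at a time gave 0 to 2. All genes called numbered 197 (73.1% lower), and 9 with no filter, 432 at 5 TPM, 85 median centred (49.4% lower), 102 quantile normalized (54.9%), 116 with the GC trend removed and a common mean (33.6%), 74 with the length trend removed (43.2%), 16 without the end libraries, 427 with library weights, 29 at 0.01, and 35 to 112 with 1 library left out. With the GC trend removed and library means kept there were 174 (58.6% lower). Pathway list genes called numbered 2 (ASCL2 and SP5), and 0 with no filter, 6 at 5 TPM, 1 median centred, 1 under either form of GC removal, 1 with the length trend removed, 5 with weights, 1 at 0.01, 1 without the end libraries, and 1 to 2 with 1 library left out. The 1 gene called without the end libraries or without buffer replicate 2 was GSK3B, and ASCL2 and SP5 were both lost there. The choice of the common mean for GC removal, and the alternatives on length, weights and end libraries, were made after seeing the data. With the replicate number as a block, 1 member and 80 genes were called. Correlations of same-numbered libraries, after each group's mean was taken out, were -0.03, 0.08 and -0.09. Those of other pairs lay between -0.12 and 0.14. With 3 libraries per group, these values cannot settle whether the numbers pair the samples. WNT6, WNT11 and FZD7 were negative under all 18 alternatives, but lost the call under 3, 8 and 15 of them. Members lower without overlap numbered 12, and 7 median centred, 6 quantile normalized, 8 with GC removed and 7 with length removed, when 5, 5, 5 and 6 were higher. The share of all tested genes is given for the main values only (20.1% lower and 7.0% higher). The counts under the other settings therefore describe the members alone and show no difference from all genes. The causes were not tested.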

Other observations

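LDL receptor relatives that the rule leaves out were read from the same limma fit, chosen after their values were seen. Of 9 such genes, 8 were tested and 0 passed, with 7 lower in every Amuc_0904 library than in any buffer library, against 20.1% of all tested genes. LRP2, which encodes the endocytic receptor megalin, averaged 3.05 and 1.6 TPM (limma adjusted p = 0.0893), and LRP11 averaged 16.0 and 11.5 TPM (0.0981). LRP12 was the exception, at 3.61 and 3.93 TPM with groups that overlapped (0.694). Of 19 genes on the other strand of tested members, 2 were tested and 0 passed in limma. GNG12-AS1, on the other strand of WLS, was at 0.00, 0.00 and 0.02 TPM in buffer and at 0.80, 0.61 and 0.42 TPM in Amuc_0904 libraries and was not tested.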
